A study of Brassica napus with 355 samples.

Results

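The 200 genes described here were those whose transcripts stood highest at ZT7, the second of the time points sampled, in the leaves of well-watered Brassica napus. ZT (Zeitgeber time) gives the hours after dawn, so ZT7 lies in the middle of the light period. For each of 106126 gene identifiers, the counts of each library, scaled to its total (CPM), were put on a log2(CPM + 1) scale, averaged over the replicates of each accession and time point under well-watered (WW) conditions, and then averaged over 16 accessions. Of these identifiers, 41325 had a mean of 2 CPM or more over all libraries, and the members are the 200 of them with the largest WW margin, the ZT7 mean minus the highest of the means at ZT1, ZT13 and ZT19. The high WW value at ZT7 is therefore what chose them and is given only as a description. The libraries of plants under water limitation (WL) took no part in the choice, and the questions put to the data were how the members behaved under WL and how much they varied over the accessions.

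Plants of 16 accessions were either watered to 100% of soil capacity (WW) or dried down to 20% of it (WL), and the apex of the youngest leaf was sampled at ZT1, ZT7, ZT13 and ZT19. The genotypes are Ab (Aburamasari), Al (Alaska_BnASSYST_004), Av (Aviso), Br (Bristol_BnASSYST-031), Ca (Campari_BnASSYST-075), DH12 (DH12075), DH20 (DH2075), Da (Darmor), Gr (Gruener Schnittrohl_BnASSYST-219), Mu (Musette_BnASSYST-056), Ne (NK_Nemax_BnASSYST-084), Qu (Quantum NE011), Se (Sensaton_NZ_BnASSYST-414), St (Stellar DH JZ111), Yu (Yudal_BnASSYST-241) and Ze (Zephir_BnASSYST-068). No group carried a transgene or another agent, and the labels contradict one another on temperature and day length. The 354 libraries analysed, 182 WW and 172 WL, had 1 to 3 replicates per accession, treatment and time point, and total counts of 3216762 to 35177558 with a median of 18332048. Ab and St at ZT7 and Ca at ZT13 had a single WL library each. The labels name plants as the source of replicates without saying which library came from which plant, so the p-values below measure the spread between libraries.

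Leaf transcripts of many plant genes rise and fall each day under the joint control of the circadian clock and of light, and the hour at which a transcript peaks is called its phase. In Arabidopsis, clock genes of the pseudo-response regulator family follow one another through the day, some of them highest around midday, and genes for light harvesting, carbon fixation and protection against excess light are also known to be phased within the light period. B. napus is an allopolyploid with an A subgenome (BnA) close to B. rapa and a C subgenome (BnC) close to B. oleracea, so most functions are encoded by several related copies. The identifiers used here are those of B. rapa (BraA) and B. oleracea (Bo). 0 of them matched the available table of gene symbols, and therefore the members are named by identifier, their roles cannot be given, and the leaf identity of the samples could not be checked with marker genes.

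The time labels were checked first, without the members. Each library was correlated with the mean time courses of the other 15 accessions of its treatment over 6604 to 7695 genes with a diel range of 1 or more on the log2 scale, and 338 of 354 libraries matched their own time point best. The other 16, 9 WW and 7 WL, matched another one, and 14 of these 16 were libraries of ZT7 that matched ZT13 or the reverse. Among the WL libraries they included Al ZT7 replicate 3, Mu ZT7 replicate 2 and St ZT13 replicate 1. In Br and in Ca under WW, 1 library labelled ZT7 matched ZT13 and 1 library labelled ZT13 matched ZT7. Results are therefore also given without these 16 libraries, an alternative chosen after the data had been seen. Leaving out libraries that cross ZT7 and ZT13 by itself favours a sharper ZT7 peak. A true shift of phase in a library would be left out in the same way.

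Under WL nearly all members again peaked at ZT7. The mean over all 16 accessions was highest at ZT7 for 199 of 200 members, and for 1 member, Bo5g002380, it was highest at ZT13. Among all 41325 genes, 13.3% had their highest WL mean at ZT7. The median member stood at 2.94 on the log2(CPM + 1) scale at ZT1, 4.99 at ZT7, 3.67 at ZT13 and 2.63 at ZT19 under WL. Under WW, where it was selected, the median member stood at 2.82, 4.75, 3.28 and 2.41 at the same times. The WL margin of ZT7 over the highest other time point had a median of 1.22 and lay between -0.10 and 3.24, and it was 1 or more for 146 members. Without the 16 libraries nearest another time point the median WL margin was 1.34 and 200 of 200 members were highest at ZT7.

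**Figure D1:**
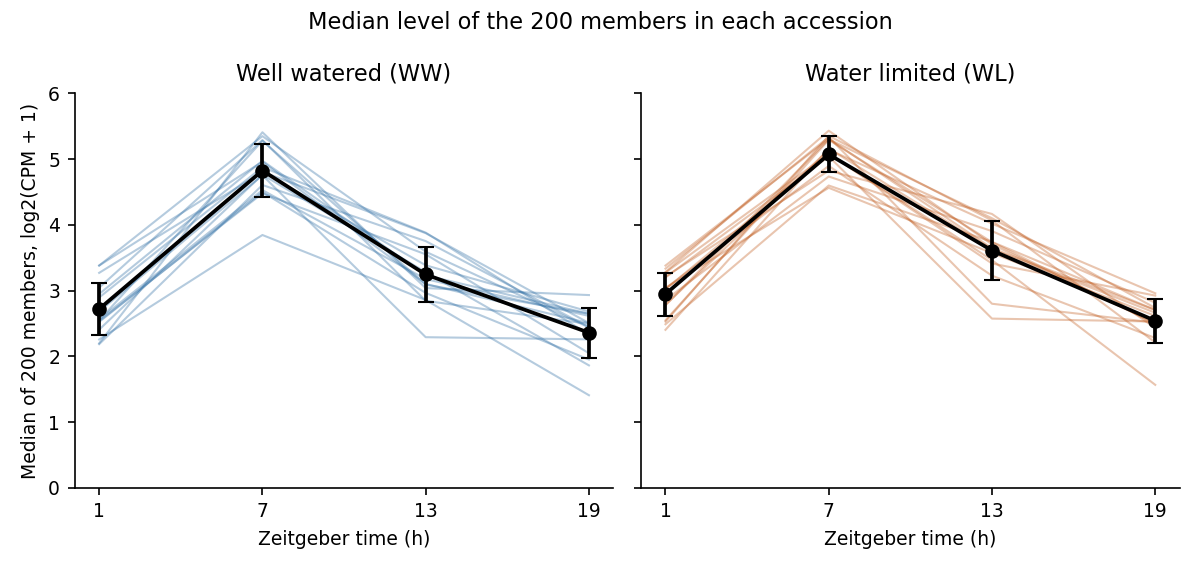
Median over the 200 members of the level in each accession (thin lines), on the log2(CPM + 1) scale, against Zeitgeber time in hours, in WW plants (left) and WL plants (right). Black points are means over the 16 accessions with their SD; they peak at ZT7 at 4.83 ± 0.40 under WW, where the members were chosen, and at 5.07 ± 0.28 under WL.

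In the test on WL libraries (edgeR quasi-likelihood, accession and time point as terms, Benjamini-Hochberg adjusted p of 0.01 or less over 41325 genes), 190 members were higher at ZT7 than at ZT1, against 20.3% of all genes tested. Higher at ZT7 than at ZT13 were 185 members, with a background of 14.3%, and higher at ZT7 than at ZT19 were 196, with a background of 20.1%. All 3 contrasts were passed by 179 members, 89.5% of them, against 4.52% of all genes tested. The median fitted log2 difference of the members was 1.91 for ZT7 against ZT1, 1.62 against ZT13 and 2.90 against ZT19, whereas the medians over all genes tested were -0.01, -0.02 and -0.03. Every member passed the filter, and 197 of 200 also reached a mean of 2 CPM in the WL libraries alone. Without the libraries nearest another time point 186 members passed all 3 contrasts, among them the 179. In WW replicates that had not chosen them the members were likewise highest at ZT7. When each replicate number was left out of the choice in turn and the members were read in that replicate alone, 200 of 200 were highest at ZT7 each time, with median margins of 1.24, 1.31 and 1.10.

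**Figure D2:**
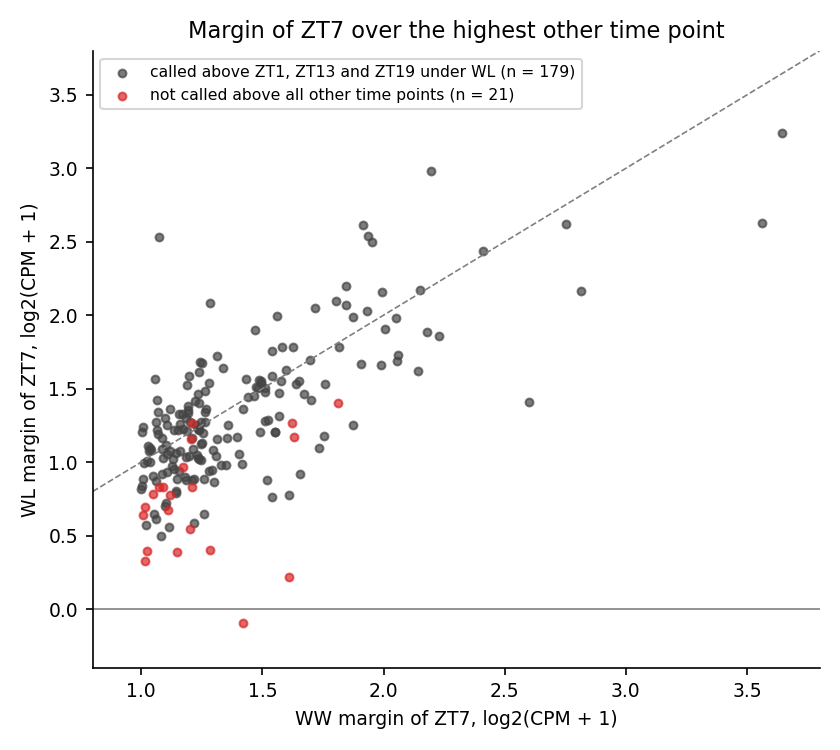
Margin of ZT7 over the highest other time point in WL libraries against the same margin in WW libraries, 1 point per member, both on the log2(CPM + 1) scale as means over 16 accessions; red points are the 21 members not called above all other time points under WL, and the dashed line marks equal margins. The WW margin chose the members and starts at 1.00, which by itself favours points below the dashed line.

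The 6 members with the largest WW margins differed in their levels outside ZT7. BraA05g10840R, first in rank with a WW margin of 3.64, ranged in WL libraries from 1.58 to 295 CPM at ZT1 (median 17.4), from 5.97 to 760 at ZT7 (median 274), from 0.171 to 38.3 at ZT13 (median 2.76), and from 0 to 0.616 at ZT19 (median 0.106). Libraries of ZT7 lay wholly above those of ZT19 but overlapped those of ZT1 and ZT13, since levels also differed between accessions and between replicates. Within accessions, its WL mean was highest at ZT7 in 16 of 16. The fitted log2 difference to ZT1 was 2.97 ± 0.35 (approximate SE, edgeR adjusted p = 3.4e-13). Its level at ZT19 was so low that 9 of 46 WL libraries held no count, and the fitted difference to ZT19, 11.04 ± 0.48, depends on the prior count.

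Bo4g039810, with a WW margin of 3.56, followed the same order of time points on chromosome C4. Its WL libraries had medians of 143 CPM at ZT1 (7.71 to 781), 955 at ZT7 (87.5 to 2196), 19.5 at ZT13 (0.478 to 177) and 0.266 at ZT19 (0 to 1.96). The fitted difference between ZT7 and ZT1 was 2.17 ± 0.30 (edgeR adjusted p = 2.9e-10), and ZT7 was highest in 16 of 16 accessions. In both genes ZT1 was second and ZT19 lowest.

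BraA02g33600R had the opposite flank. Its WL median was 0.695 CPM at ZT1 (0 to 7.68), 125 at ZT7 (14.2 to 616), 31.5 at ZT13 (0 to 122) and 1.16 at ZT19 (0 to 21.7), and the libraries of ZT7 lay above all those of ZT1. Its fitted difference was 6.95 ± 0.35 to ZT1 and 2.34 ± 0.28 to ZT13 (edgeR adjusted p = 8.4e-43 and 1.7e-12). It peaked at ZT7 under WL in 16 of 16 accessions, with margins from 0.57 in Ne to 4.67 in Ze.

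Bo3g146480 and BraA08g22990R stayed well above 0 around the clock. Bo3g146480 had WL medians of 152 CPM at ZT1 (8.61 to 1691), 1368 at ZT7 (25.4 to 3958), 188 at ZT13 (2.99 to 1656) and 193 at ZT19 (8.13 to 989.5). Its fitted differences to the 3 other time points were 2.42 ± 0.37, 2.62 ± 0.37 and 2.55 ± 0.36 (largest edgeR adjusted p = 4.6e-09), so none of the other time points stood out. BraA08g22990R had WL medians of 57.0, 396, 43.6 and 60.6 CPM at ZT1, ZT7, ZT13 and ZT19, with ranges that overlapped between time points, and fitted differences of 2.29 ± 0.36, 2.79 ± 0.36 and 2.41 ± 0.35. In St, where ZT7 rests on 1 WL library, the WL margins of these genes were 0.03 and -0.50, the lowest of any accession.

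BraA08g30590R, the fifth by WW margin (2.60), had a WL margin of 1.41. It was picked for its large WW margin, which by itself favours a smaller WL margin, so the pair of values is a description. Its WL medians were 5.36 CPM at ZT1 (0 to 221), 133 at ZT7 (0.438 to 422), 50.8 at ZT13 (0 to 926) and 16.6 at ZT19 (0 to 251). The difference to ZT13, 1.46 ± 0.48, had an edgeR adjusted p of 0.0098 and was no longer called under 6 of the alternatives tried, each left-out replicate number among them, with fitted values of 1.45 to 1.65. ZT7 was highest in 12 of 16 accessions, and in Mu the margin was -1.24, or -0.90 without Mu ZT7 replicate 2.

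**Figure D3:**
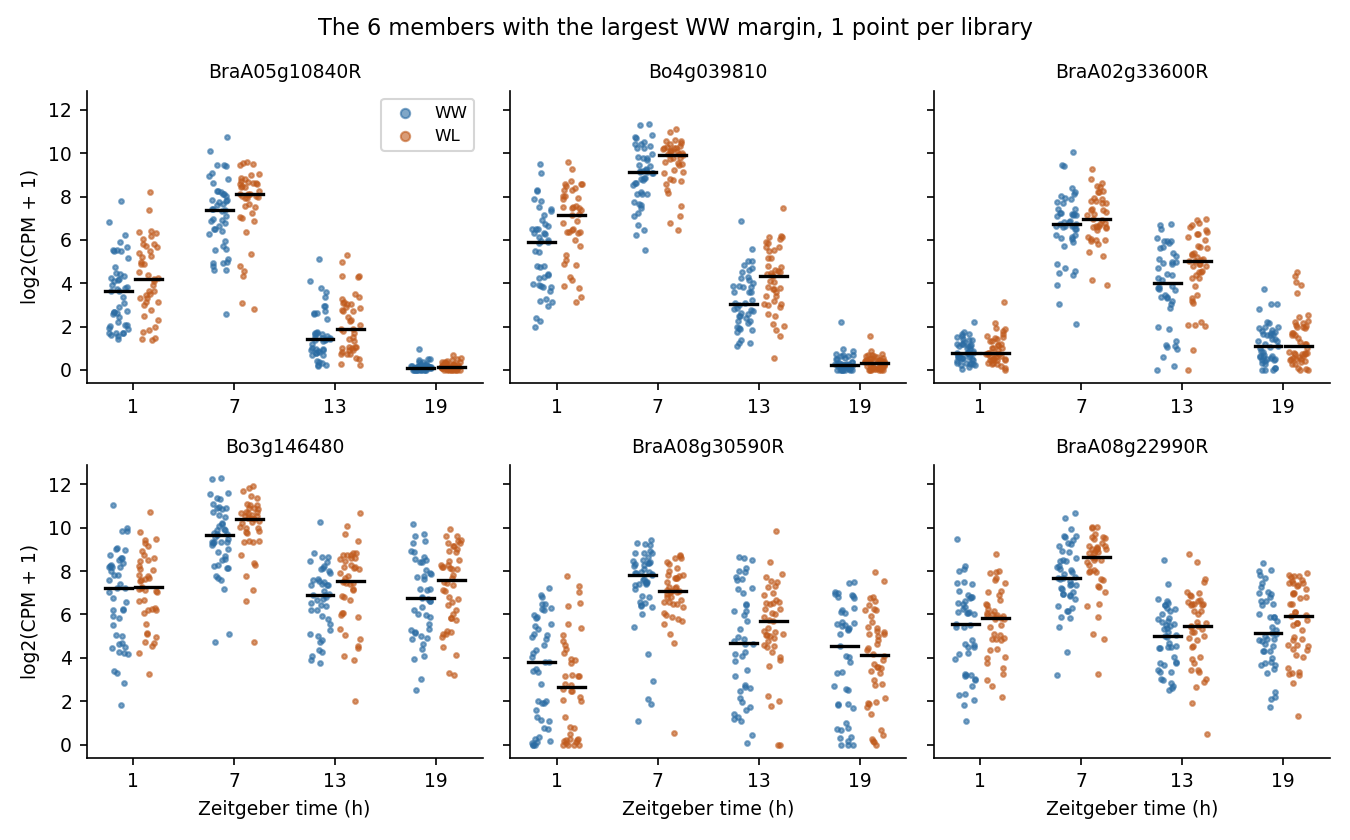
Level of the 6 members with the largest WW margin in every library, on the log2(CPM + 1) scale, against Zeitgeber time in hours; blue points are WW and orange points WL libraries, drawn side by side at each time point, and black bars are medians. All medians are highest at ZT7, and at ZT19 no library exceeds 0.923 CPM for BraA05g10840R or 3.59 CPM for Bo4g039810.

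By the lowest of the 3 fitted WL differences, the members most sharply peaked under WL were BraA03g52680R, BraA02g16020R and Bo3g024240 beside BraA05g10840R. BraA03g52680R, 26th by WW margin, had WL medians of 2.56 CPM at ZT1 (0.962 to 6.89), 78.3 at ZT7 (13.8 to 493), 12.9 at ZT13 (2.64 to 58.6) and 9.31 at ZT19 (3.23 to 18.1). At ZT7 it overlapped neither ZT1 nor, apart from a narrow band, ZT19, and its smallest fitted difference was 2.89 ± 0.20, to ZT13 (edgeR adjusted p = 1.9e-27). Bo3g024240 was at or near 0 at ZT1 and ZT19. 32 of 42 WL libraries at ZT1 and 27 of 46 at ZT19 held no count of it, the highest values there were 0.175 and 0.162 CPM, and every WL library of ZT7 lay between 0.185 and 62.8 CPM with a median of 10.2. At ZT13 only 7 of 43 held no count and values reached 1.599 CPM (median 0.116), so ZT13 overlapped the lowest libraries of ZT7. Its mean level differed between accessions from 0.437 CPM in St to 11.0 CPM.

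The members fell into 3 sets by the time point that came second under WW. In 119 of them ZT13 was second, in 67 ZT1, and in 14 ZT19. Under WL 163 of 200 had the same second time point, 105 of the 119, 53 of the 67 and 5 of the 14. The lowest WL mean was at ZT19 for 111 members, at ZT1 for 83 and at ZT13 for 6. Of the set with ZT13 second, 109 were called above all other time points under WL, of the set with ZT1 second 60, and of the set with ZT19 second 10. Bo3g146480 and BraA08g22990R, and the neighbours Bo1g049340 and Bo1g049350, were among the members with ZT19 second under WL or WW.

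21 members did not pass all 3 contrasts under WL, and 7 had a WL margin under 0.5. The 4 with the smallest of the 3 fitted differences were Bo5g002380, BraA09g18410R, BraA10g01390R and Bo1g025800. Bo5g002380, 72nd by WW margin with 1.42, had WL medians of 20.0 CPM at ZT1 (0.0678 to 92.9), 55.3 at ZT7 (0.547 to 144), 73.3 at ZT13 (0.478 to 273) and 27.9 at ZT19 (0.433 to 108), and WW medians of 117 at ZT7 and 57.5 at ZT13. Its ZT7 and ZT13 libraries overlapped under WL. The fitted difference of ZT7 to ZT13 was -0.11 ± 0.30 (edgeR adjusted p = 0.81), the only one of the members' fitted WL differences that was below 0, while those to ZT1 and ZT19 were 1.27 ± 0.30 and 1.29 ± 0.30. Its mean was highest at ZT7 in 8 of 16 accessions, and its margin ran from -2.41 in Al to 1.85 in Ab. Without Al ZT7 replicate 3 the margin in Al was -0.59.

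BraA10g01390R had the same shape, with WL medians of 8.21, 28.6, 27.4 and 11.5 CPM from ZT1 to ZT19 against 67.8 CPM at ZT7 under WW. Its difference of ZT7 to ZT13 under WL was 0.27 ± 0.32 (edgeR adjusted p = 0.54). Bo1g025800, one of the most abundant members with a mean of 960 CPM, had WL medians of 550 CPM at ZT1 (56.5 to 1759), 1244 at ZT7 (47.3 to 3150), 1120 at ZT13 (0.568 to 5501) and 966 at ZT19 (34.9 to 3212). The plateau from ZT7 to ZT19 left its differences to ZT13 and ZT19 at 0.28 ± 0.27 and 0.41 ± 0.27, and it was highest at ZT7 in 6 of 16 accessions. BraA09g18410R passed none of the 3 contrasts, with fitted differences of 1.15 ± 0.61, 0.53 ± 0.60 and 0.23 ± 0.58 to ZT1, ZT13 and ZT19. Its count was not whole in 75.1% of libraries, which marks reads that were divided between several genes. That these genes passed under WW and not under WL is no test of a difference between the treatments, since the WW libraries chose them.

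The level of the members under WL was then set against that under WW. The contrast of WL against WW, in which each of the 4 time points had the same weight, gave 104 members higher (background 23.1%) and 11 lower (background 23.2%). The WW libraries that chose the members enter this difference at all 4 time points, where the choice favoured high values at ZT7 and low ones at ZT1, ZT13 and ZT19, so these counts are a description. The median fitted log2 difference was 0.34 for the members and 0.00 for all genes tested, and 164 of 200 members, against 50.5% of all genes tested, were above 0. Without the libraries nearest another time point 106 were higher and 9 lower. The level was therefore also fitted with members chosen in the WW libraries of the other replicate numbers and read against those of the number left out. Against WW replicate 1 alone, 36 members were higher and 8 lower (edgeR, backgrounds 15.6% and 14.3%), against replicate 2 alone 81 and 5 (14.4% and 13.3%), and against replicate 3 alone 85 and 2 (15.7% and 15.6%). The median fitted difference of these members was 0.25, 0.37 and 0.39, beside 0.01 for all genes tested each time, and 147, 172 and 172 of 200 were above 0. More members were higher than lower each time, and the number higher depended on the WW libraries read. Of the 104, 88 were higher in 12 or more accessions and 10 in all 16, and each of the 11 was lower in 13 or more. The fit that called them pools these same accessions, so such agreement is partly built in and is a description. By accession the median of the members ran from -0.12 in St to 0.88 in Ca on the log2(CPM + 1) scale and was above 0 in 13 of 16, whereas the median over all genes ran from -0.11 to 0.06. St and Ca are accessions with a WL group of 1 library, at ZT7 and ZT13. In Ca the WW side is uncertain too. Its WW ZT7 replicate 1, with a median of the members of 2.64, and its WW ZT13 replicate 3 were nearest another time point. The median WW level at ZT7 in Ca, 3.85, was the lowest of any accession. The level difference of Ca without these libraries is not given here.

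**Figure D4:**
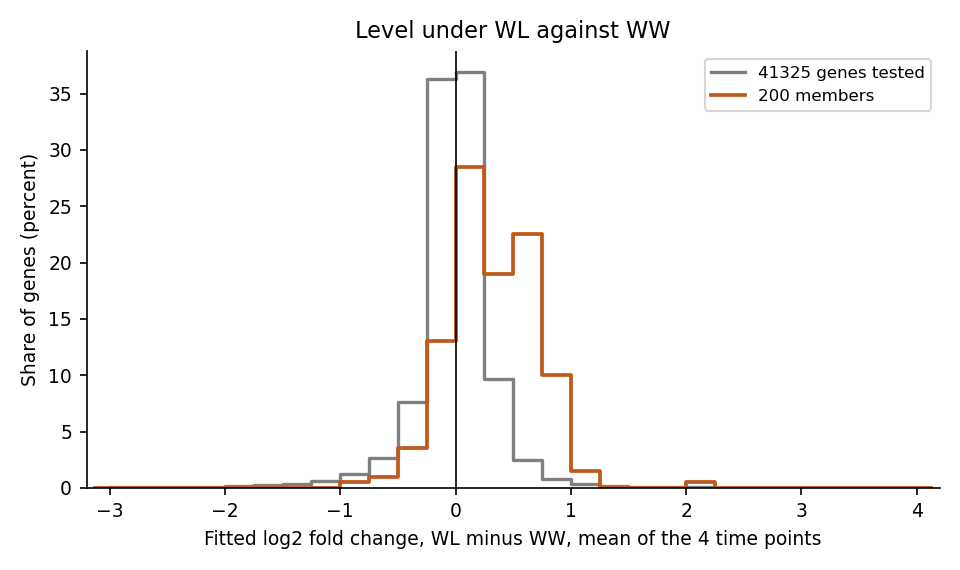
Distribution of the fitted log2 fold change between WL and WW, with equal weight for the 4 time points, in bins 0.25 wide, as a share of genes in percent, for the 200 members (orange) and the 41325 genes tested (grey). The members have a median of 0.34 and the genes tested a median of 0.00.

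Read time by time, as a description, the WL minus WW difference of the median member was 0.13 at ZT1, 0.24 at ZT7, 0.36 at ZT13 and 0.16 at ZT19 on the log2(CPM + 1) scale, beside medians over all genes of -0.10, -0.05, 0.01 and 0.00. Above 0 were 121, 158, 173 and 148 members at these times, beside 31.6%, 40.35%, 51.8% and 50.2% of all genes. The choice lowers the difference at ZT7 and raises it at ZT1, ZT13 and ZT19. With members chosen in the other WW replicates and read in the replicate left out, numbers 1, 2 and 3 in turn, the median difference was 0.01, 0.14 and 0.23 at ZT1. At ZT7 it was 0.23, 0.16 and 0.48, at ZT13 0.16, 0.28 and 0.47, and at ZT19 0.12, 0.26 and 0.08. Of the 67 members with ZT1 second, 43 were called higher and 1 lower in level (backgrounds 23.1% and 23.2%), with a median fitted difference of 0.49. Of the 119 with ZT13 second, 56 were called higher and 10 lower, with a median of 0.21. The sets were split by WW values that enter these differences, so the contrast between the sets is a description too.

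The largest rises in level were those of BraA02g16020R, BraA06g03000R and BraA03g38700R. These genes, like those of the largest falls, were picked from the level fit itself. The WW libraries that chose the members enter that fit, so p-values and accession counts of level changes are a description. BraA02g16020R had a WW median of 2.08 CPM at ZT7 (0 to 247) and a WL median of 9.97 (0.0527 to 502), and at ZT1 25 of 46 WW and 10 of 42 WL libraries held no count. The libraries of both treatments overlapped, yet its fitted level rose by 2.17 ± 0.19 (edgeR adjusted p = 6.2e-23), and it was higher under WL in 15 of 16 accessions. With limma over accessions, on the log2(CPM + 1) scale, the rise was 0.77. Its mean level ran from 0.165 CPM in Br to 66.3 CPM in Gr, and Br and Yu were under 0.5 CPM. Its WL margin, 2.53, was the largest gain on a WW margin (1.07).

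BraA03g38700R went from a WW median of 14.5 CPM at ZT7 (0.0577 to 40.0) to a WL median of 27.2 (2.46 to 61.7), and from 4.04 to 9.89 at ZT13. Its level rose by 1.11 ± 0.14 (edgeR adjusted p = 1.6e-12), with 15 of 16 accessions higher, and by 0.63 with limma over accessions. BraA06g03000R had ZT7 medians of 5.98 CPM under WW (0.202 to 93.3) and 17.7 under WL (0.164 to 145). It rose by 1.12 ± 0.21 (edgeR adjusted p = 1.6e-06) and was higher in 13 accessions, although its difference of ZT7 to ZT1 under WL, 1.06 ± 0.40, had an adjusted p of 0.021. Bo4g039810 also rose, by 0.68 ± 0.16 (edgeR adjusted p = 0.00012), with WW medians of 58.3 CPM at ZT1 and 561 at ZT7 against the WL medians of 143 and 955.

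The largest falls were those of BraA07g13500R, BraA07g23200R and BraA10g01390R. Their p-values and accession counts for level are likewise a description. BraA07g13500R, the member with the lowest mean (2.13 CPM), had ZT7 medians of 5.76 CPM under WW (0.236 to 14.4) and 2.11 under WL (0.219 to 4.88). Its level fell by 0.85 ± 0.12 on the log2 scale (edgeR adjusted p = 3.7e-10), in 15 of 16 accessions, and by 0.55 with limma over accessions, and its WL margin was 0.32. BraA07g23200R had ZT7 medians of 10.6 CPM under WW (4.43 to 27.1) and 6.59 under WL (1.36 to 60.1), and fell by 0.61 ± 0.09 (edgeR adjusted p = 5.3e-10), again in 15 of 16 accessions. Under WL its smallest fitted difference was 1.44 ± 0.20, to ZT13 (0.94 with limma over accessions), and its margin in Mu was -0.20, or 0.15 without Mu ZT7 replicate 2. BraA10g01390R fell by 0.54 ± 0.16 (edgeR adjusted p = 0.0021) in 13 accessions, and this call was lost without replicate 1 or replicate 3 and with limma over accessions.

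The accessions shared the ZT7 peak to different degrees. Under WL, ZT7 was the highest time point in 2844 of 3200 pairs of a member and an accession, against 3020 under WW, where the choice was made. 70 members peaked at ZT7 under WL in all 16 accessions, 179 in 12 or more, and 3 in fewer than 8. By accession, the number of members highest at ZT7 under WL ran from 131 in Mu, 150 in Ne, 162 in St and 163 in Al to 196 in Ze and 197 in Br. The share of all genes with their highest WL mean at ZT7 also differed between accessions, from 11.9% in Da to 31.5% in St with a median of 15.9%. The median WL margin was 0.46 in Mu, 0.56 in Ne, 0.61 in St and 0.68 in Al, and it was 1.045 or more in the other 12, up to 1.48 in Br. The mean of these medians was 1.09 ± 0.33 (SD over 16 accessions).

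This order changed without the libraries nearest another time point. Without Mu ZT7 replicate 2, 170 members peaked at ZT7 in Mu, and without Al ZT7 replicate 3, 181 did in Al. In Mu the median of the members was 5.42 and 5.204 in ZT7 replicates 1 and 3 and 4.08 in replicate 2, close to the Mu ZT13 values of 3.895 to 4.54. In Al it was 5.06 and 5.40 in replicates 1 and 2 and 3.695 in replicate 3. Without St ZT13 replicate 1, 169 did so in St, whose ZT7 value rests on 1 library at 4.60. Ne lost no library to this check, and its 150 members and margin of 0.56 stood, with ZT7 medians of 4.65 and 4.79 in its 2 libraries against 3.67, 4.10 and 3.96 at ZT13. In Br and Ca the WW values moved, the median WW margin going from 0.88 to 1.48 in Br and from 0.83 to 1.503 in Ca.

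**Figure D5:**
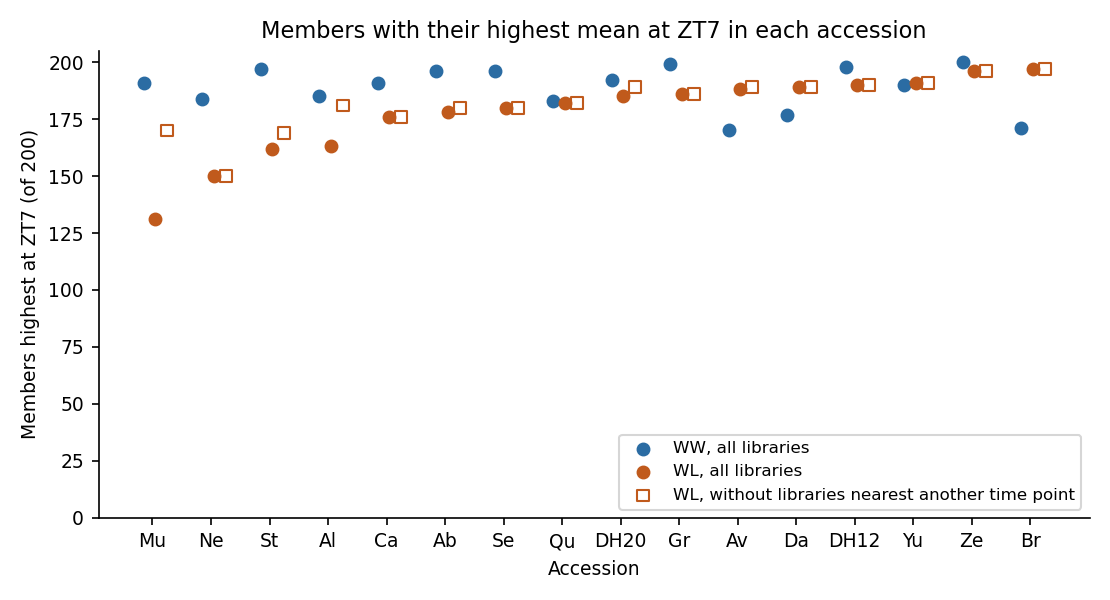
Number of the 200 members whose mean was highest at ZT7 in each accession, ordered by the WL value; blue points are WW and filled orange points WL with all libraries, and open squares are WL without the libraries nearest another time point. Mu stands at 131 with all libraries and at 170 without its ZT7 replicate 2, and Ne stays at 150.

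A test of whether the WL time course differed between accessions (edgeR, interaction of accession and time point, 45 degrees of freedom) called 14 members, 7.0% of them, against 3.98% of all genes tested. At an unadjusted p under 0.05 there were 64 members, beside 22.0% of all genes. With edgeR 0 members were called without replicate 1 and 1 without replicate 2 or 3, which leaves at most 2 libraries a group. In these 3 fits 50, 51 and 29 members had an unadjusted p under 0.05, beside 17.7%, 15.7% and 11.3% of all genes. The count was 7 with limma, 4 of them among the 14, and 17 without the libraries nearest another time point. Among the 14 were members that peaked at ZT7 in all 16 accessions with margins of unequal size, such as Bo8g007140 (0.75 in Qu to 3.21 in DH12; adjusted p = 9.3e-06), BraA10g21750R (0.42 in Mu, or 1.76 without Mu ZT7 replicate 2, to 3.71 in Br) and Bo8g064820 (0.44 in Qu to 1.61 in Gr). In others ZT7 was not highest in some accessions. BraA07g04990R had a WL margin of -1.98 in DH12 and 2.39 in Ze, Bo2g017780 of -2.42 in Mu and 3.09 in Ze, and BraA02g08990R of -1.44 in Ab and 2.74 in Av, with ZT7 highest in 13, 9 and 10 accessions. The value of Bo2g017780 in Mu was -1.36 without Mu ZT7 replicate 2, and that of BraA02g08990R in Ab rests on 1 WL library at ZT7. These examples were chosen after their values were seen.

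The largest SDs of the WL margin over accessions, 2.26, 2.20 and 1.86, belonged to BraA03g23150R, Bo3g037620 and BraA09g18410R, none of which was called in the interaction test (adjusted p = 0.14, 0.041 and 0.60). BraA03g23150R had a margin of 4.42 in Qu, 3.81 in Ze and 3.55 in Br, but -3.06 in Ne and -3.82 in Mu, where the ZT13 mean was 6.77 against 2.94 at ZT7 on the log2(CPM + 1) scale. Without Mu ZT7 replicate 2 this last margin was -3.10. Bo3g037620 behaved alike, with 4.27 in Qu, 3.98 in Br and 3.23 in Ze, and -2.17 in Ne and -3.86 in Mu. Without Mu ZT7 replicate 2 its margin in Mu was -3.58. At ZT7 under WL the libraries of Bo3g037620 ranged from 0 to 386 CPM with a median of 10.1, and those of BraA03g23150R from 0.581 to 504 with a median of 17.2. The difference of ZT7 to ZT13 under WL was 2.37 ± 0.64 for Bo3g037620 (edgeR adjusted p = 0.0015) and 1.78 ± 0.62 for BraA03g23150R (adjusted p = 0.015), and it was lost for the former without replicate 1 (2.13), without replicate 3 (2.26) and with limma over accessions (1.25), and called for the latter without the libraries nearest another time point.

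Some members were nearly silent in single accessions. In 20 pairs of an accession and a member, involving 14 members, the mean over the accession's libraries was under 0.5 CPM. Bo5g139670 held no count in Gr and reached 13.0 CPM in its highest accession, Bo9g184880 was at 0.0025 CPM in Qu and at 22.9 in its highest, and Bo8g112500 ran from 0.246 CPM in Se to 312. Reads of all accessions were mapped to the same reference genomes, so a missing gene, a diverged sequence and low expression cannot be told apart. The WL margin of these pairs ran from -0.27 to 2.13 with a median of 0.28.

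Of the members 106 lay on BnA (53.0%) and 94 on BnC (47.0%), whereas 46.4% and 53.5% of the 41325 genes did. The median WL margin was 1.22 for BnA and 1.24 for BnC members, the median fitted level difference 0.30 and 0.37, and 96 and 83 of them passed all 3 WL contrasts. By chromosome the members made up from 0.27% of the genes of A01 and 0.29% of C1 to 0.83% of A05 and 0.89% of A06. 17 members lay within 3 identifiers of another member, in 7 pairs and 1 group of 3. The group of 3 was BraA05g10820R, BraA05g10840R and BraA05g10860R, with WL margins of 1.67, 3.24 and 1.69. The first pair on C4, Bo4g039810 and Bo4g039820, had margins of 2.63 and 1.62, and the pair on C1, Bo1g049340 and Bo1g049350, of 2.61 and 2.54. All of these 7 genes had their highest WL mean at ZT7, and those of A05 and C4 had ZT1 second under WW, while those of C1 had ZT19 second. Their counts were not whole in 25.1% to 75.7% of libraries, which marks reads divided between genes. Over the 41325 genes the median of this share was 46.05%, with quartiles of 27.4% and 52.3%. The part of reads divided between similar copies in the likeness of these neighbours was not tested.

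At the edge of the choice the values changed little. Just inside were Bo2g002750, Bo9g073060 and BraA08g31060R, with WW margins of 1.004, 1.004 and 1.001 and WL margins of 0.84, 1.21 and 0.82. Just outside were BraA03g17790R, Bo3g025180 and Bo7g048510, with WW margins of 1.001, 0.999 and 0.999 and WL margins of 1.11, 0.92 and 0.98. Bo2g002750 had WL medians of 20.4 CPM at ZT1, 107 at ZT7, 60.3 at ZT13 and 1.81 at ZT19, and Bo9g073060 of 2.04, 53.6, 26.9 and 7.03. The former was lowest at ZT19 and the latter at ZT1.

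Of the lists of genes that the study grouped by function, held here in part and drawn up from these libraries, those for abiotic stress (17 genes tested), autophagy (87) and carbohydrate metabolism (232) contained no member, and the list for biotic stress (114) contained 1, Bo9g026090. With 200 members among all 41325 genes tested, lists of these sizes would hold few members or none at that share. The counts are therefore no result about these functions. In that last list 4 genes passed all 3 WL contrasts, 3.51%, beside the background of 4.52%. In level 8 were higher and 86 lower (backgrounds 23.1% and 23.2%), with a median fitted difference of -0.51. Higher and lower in level were 3 and 6 genes for abiotic stress, 6 and 52 for autophagy, and 92 and 79 for carbohydrate metabolism. The study drew up these lists from the same libraries, so the level counts are a description and no test of these functions. Bo9g026090 had WL medians of 0.485 CPM at ZT1 (0 to 21.6), 20.0 at ZT7 (0.102 to 128), 2.92 at ZT13 (0 to 57.5) and 1.42 at ZT19 (0 to 9.88). Its smallest fitted difference was 2.51 ± 0.48, to ZT13 (edgeR adjusted p = 5.3e-06), its level difference was -0.16 ± 0.20 (adjusted p = 0.52), and it peaked at ZT7 in 15 of 16 accessions, with a margin of -1.39 in Mu, or -0.26 without Mu ZT7 replicate 2.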

How the data were processed

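Leaf RNA of 16 accessions was sequenced from strand-specific libraries. After trimming with Trimmomatic 0.33 and mapping with HISAT2 2.1.0 to a joint reference made of the R500 genome of B. rapa and the TO1000 genome of B. oleracea, the authors deposited estimated counts per gene, in which featureCounts divides a read that maps to several genes between them. They also deposited log2 FPKM values, normalized with edgeR, which were used here only for an alternative scale. 1 of 355 listed libraries, Br WW ZT13 replicate 1, was not analysed here.

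Counts were rounded and fitted in R 4.3.3 with edgeR 4.0.16 (quasi-likelihood F-test, TMM scaling, mean CPM of 2 or more over all libraries). The trended dispersion was estimated on every 20th gene by abundance (every 100th for the interaction with the block) and interpolated. Calls were made at a Benjamini-Hochberg adjusted p of 0.01 or less over all genes tested. The value after ± in edgeR results is the size of the fitted log2 difference divided by the square root of its F statistic. It is an approximate SE. The time fit had accession and time point as terms on the 172 WL libraries, the level fit had accession and the 8 groups of treatment and time point on all 354, and the interaction fit had a mean for each accession and time point under WL. Margins used log2(CPM + 1), which understates changes of low genes. The fits were also run on simulated independent counts with planted changes, the same dispersion for all genes and no baseline differences between accessions. That run checked the code and not how far the fits suit these data. Named genes were the 6 members with the largest WW margin, the 4 with the largest and the 4 with the smallest of their lowest WL difference, the 3 with the largest rise and the 3 with the largest fall in level among those called, the 3 with the largest SD over accessions of the WL margin, the 3 genes on each side of the threshold, and for each functional list of the study that held members the one with the largest WW margin. The members and lists were chosen with earlier results of these data known. Alternatives were RLE size factors, filterByExpr, no filter, an adjusted p of 0.05, a block for replicate number and the omission of each replicate number. Others were DESeq2 1.42.0, limma 3.58.1, and other scales and filters for the choice. Each accession was left out of the choice of members only, and Ab, St and Ca together of the WL time fit only. The level and interaction fits were not repeated without any accession. Added after the data had been seen were the libraries nearest another time point left out and a level fit on members chosen in other WW replicates.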

Additional observations from a re-analysis of the deposited data

Results flagged for a closer look

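The WL time course of 14 of the 200 members differed between accessions by the test of the interaction of accession and time point (edgeR, adjusted p of 0.01 or less over all genes tested, background 3.98%). The test does not separate the size of the ZT7 peak from its place. As a description, in examples chosen after their values were seen, Bo8g007140 was highest at ZT7 in every accession with margins of unequal size. BraA07g04990R was not highest at ZT7 in DH12. The count of members called ranged from 0 to 22 over the alternatives. What sets the accessions apart at these genes was not tested.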

How the results depend on the processing

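Of the counts and medians that answer a comparison, 118 values under the alternatives stayed on the same side or within 1.5 times of the main value. 1 of the 9 others was the count of members changed in level, 44 when they were chosen and measured in different WW replicates and read in replicate 1, against 86 and 87 in replicates 2 and 3 and 115 with all libraries. The other 8 belonged to the interaction of accession and time point, which called 14 members. It called 9 with filterByExpr, 8 with no filter on low counts, 7 with limma over accessions (4 of the 14 among them) and 22 at an adjusted p of 0.05. Without replicate 1, 2 or 3, where fewer libraries were tested, it called 0 to 1. There 29 to 51 members had an unadjusted p under 0.05, beside 11.3% to 17.7% of all genes. The cause of these changes was not tested. Replicate numbers did not pair the libraries, since deviations from group means had a median correlation of -0.0199 between groups for the same number and 0.011 for different numbers. With the replicate number as a block 177 members passed all 3 WL contrasts and 188, 185 and 197 the single ones, 115 changed in level, and 3 were called in the interaction test. Members passing all 3 contrasts numbered 156 to 160 with a replicate number left out, 172 with limma, 184 with DESeq2 and 175 without Ab, St and Ca. Of the 200 members, 187 to 195 stayed when an accession was left out of the choice, 181 to 183 without a replicate number, 186 without the libraries nearest another time point, 170 at a mean of 5 CPM or more and 162 with medians over accessions. The median WL minus WW difference at ZT7 was 0.33 on the deposited log2 FPKM, held for 199 members in at least 1 accession and for 148 in all 16, and 0.17 to 0.40 with a replicate number left out. Depth limits members of a few CPM, where zeros are common.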
